A study of Mus musculus with 9 samples.

Results

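The 10 genes described here encode the transcription factor NRF2 (Nfe2l2), 7 enzymes of the antioxidant and haem-degrading response that NRF2 is known to drive (Hmox1, Nqo1, Gclc, Gclm, Txnrd1, Srxn1 and Prdx1) and the ferritin subunits that store iron (Fth1 and Ftl1). They were chosen by gene symbol from a RiboSeq table of 16921 gene identifiers, in which all 10 were found. RiboSeq counts the short mRNA pieces that ribosomes protect from nuclease, so a gene's footprint level reflects both how much mRNA is present and how densely it is being translated. The 9 libraries came from mouse bone marrow-derived macrophages (BMDMs) that lack the RNA-binding protein TTP (Zfp36) and were immortalized with the oncogenes hcmyc and hRasG12V. CD11b- and F4/80-positive cells were given a tet-inducible retroviral vector for GFP, GFP-TTP or GFP-TTP-AA, with 3 libraries of each. GFP-TTP-AA carries S52A and S178A, so that the kinase MK2 cannot phosphorylate it at these serines. All cells, the GFP controls included, received doxycycline (1 µg/ml) for 6 h and LPS (1 µg/ml) for 1 h, so every level is that of an LPS-treated macrophage. Each construct is carried by a separately transduced cell population, so that construct and population cannot be told apart. The design calls the replicates biological but does not say that they came from separate mice or transductions, so the errors may partly be technical.

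As background, NRF2 is held in the cytosol by KEAP1, which directs it to the proteasome. Oxidants and electrophiles release it, and NRF2 then enters the nucleus with small MAF partners and switches on genes through antioxidant response elements in their regulatory DNA, while BACH1 represses several of the same sites. In macrophages the response limits the damage from their own oxidative burst and from the haem and iron of ingested red cells. Ferritin is also set at translation, since iron regulatory proteins block its mRNAs through a hairpin in the 5′UTR when iron is scarce. TTP binds AU-rich elements in 3′UTRs and brings mRNA-degrading enzymes to them. The comparisons ask how far wild-type TTP, and TTP that MK2 cannot switch off, change the footprints of these genes.

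The deposited footprint values are those that the study's DESeq2 model fitted for each library, not raw counts. A level is given here as the fitted value divided by the library's size factor, which places all libraries on a common scale. The model adds a term for the condition and a term for the replicate number. By construction, the order of the conditions is then the same at each replicate number. The order of the replicates is likewise the same in each condition. The agreement of replicates in the fitted levels is therefore not a measure of error, and neither is overlap or separation of the conditions. Errors come instead from the standard errors deposited with the 3 comparisons, which cover the spread between libraries. The fold changes were shrunken towards 0 by that model. The 3 comparisons share libraries and are not independent of each other. The sum of the fitted values ranged from 2570292 to 12804501 over the libraries and their size factors from 0.415 to 2.14, and the smallest libraries were those of replicate 2.

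The labels were checked on Zfp36. Its fitted level was 457.5 in GFP cells, 923.6 in GFP-TTP cells and 1531 in those with GFP-TTP-AA. Although the cells are labelled TTP-deficient, the fitted level in GFP cells was at the 72nd percentile of all kept genes. Shrinkage of the fold changes draws the fitted levels of the conditions together. How many Zfp36 footprints the GFP cells held therefore cannot be read from this level. The levels with a construct may also include footprints that do not come from it. By the Wald test on the deposited errors, Zfp36 was higher in GFP-TTP than in GFP by 1.01 on the log2 scale (SE 0.25, adjusted p = 0.0049). In GFP-TTP-AA it was higher than in GFP by 1.74 (adjusted p = 2.3e-09). GFP-TTP-AA cells also exceeded GFP-TTP cells by 0.73 (SE 0.25, adjusted p = 0.039, and 0.064 when the 3 comparisons were adjusted together), so the mutation and the higher Zfp36 footprint level cannot be told apart in these libraries. Protein levels were not analysed here. The macrophage label fitted the markers, of which 8 of the 9 in the table passed the minimum level of 10, with Mertk below it. Their summed level was 88000 to 106000 in GFP, 70200 to 83200 in GFP-TTP and 100000 to 121000 in GFP-TTP-AA libraries. Between GFP-TTP-AA and GFP-TTP 4 of the 8 (Emr1, Lyz2, Fcgr1 and Spi1) were higher in GFP-TTP-AA, where 10.2% of all genes were called. Emr1 (-0.68), Lyz2 (-0.48) and Fcgr1 (-0.95) were also lower in GFP-TTP than in GFP (adjusted p = 0.0026, 0.0059 and 0.0021), and of the 8 only Emr1 was called in GFP-TTP-AA against GFP. Not all listed markers of other cell types were found in the data. Those found for T and B cells, for fibroblasts and endothelium and for mast and dendritic cells all lay below the minimum level. Of 5 listed neutrophil markers 2 were found, and only S100a8 passed the minimum, at 26.9, 25.5 and 55.7 in GFP, GFP-TTP and GFP-TTP-AA cells. The part of these marker differences in the results below was not tested, and fewer cells of a type and less RNA per cell cannot be told apart in bulk libraries.

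Per kilobase of coding sequence, the genes spanned from ferritin heavy chain at the top to Nqo1 near the floor. In GFP cells the fitted level per kilobase was 25150 for Fth1, 20240 for Prdx1, 2393 for Hmox1, 1402 for Nfe2l2 and 1338 for Txnrd1. It was 712.6 for Ftl1, 456.0 for Srxn1, 438.7 for Gclm, 175.5 for Gclc and 2.64 for Nqo1. The 3 fitted levels of a gene within a condition differ only by the replicate term. That term is the same in each condition, so the ranges below are no measure of error. The ranges of Nfe2l2 and Txnrd1 overlapped in all 3 conditions, and so did those of Srxn1 and Gclm. The range of Ftl1 overlapped that of the next lower gene in both TTP conditions. In GFP-TTP-AA cells the ranges of Hmox1 (1685 to 1917) and Nfe2l2 (1354 to 2080) overlapped as well. In GFP cells Hmox1 lay above Nfe2l2 in the ranges of both (2245 to 2554 against 1202 to 1845). The order of the genes was not tested. The levels of Ftl1, Prdx1 and Fth1 are uncertain because the authors' mapping kept up to 2 places per read. Of all windows of 28 bases in the coding sequence, 89.3% occurred elsewhere in the mouse genome for Ftl1, 73.1% for Prdx1 and 26.4% for Fth1, and 0% for each of the other 7 genes.

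**Figure D1:**
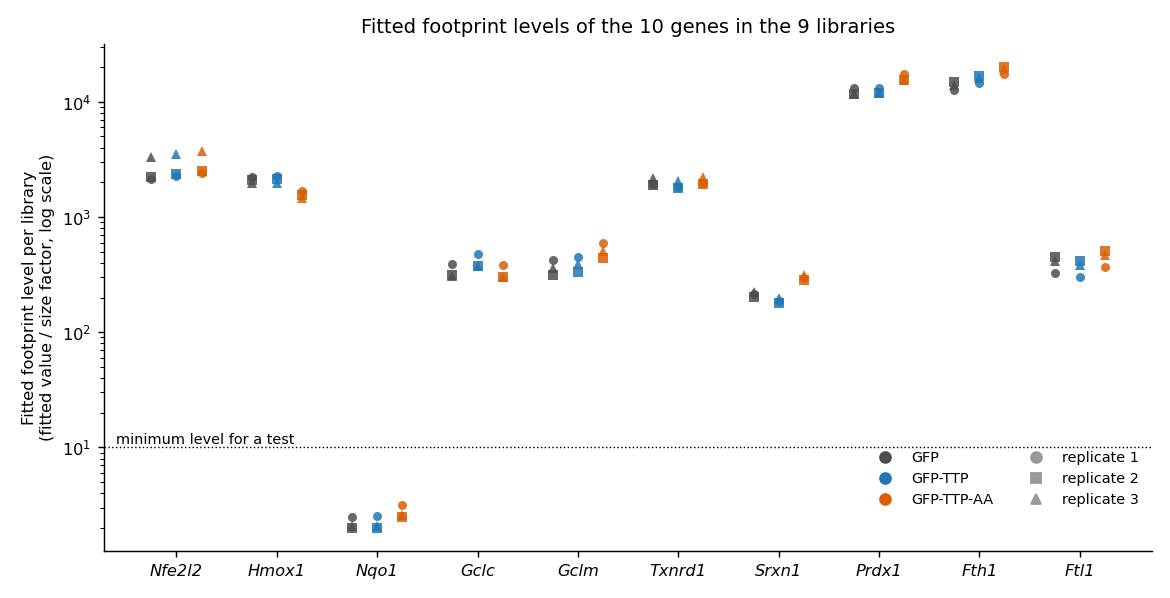
Fitted footprint level of each gene (fitted value divided by the library's size factor, log axis) in the 9 libraries, with a colour for each condition and a symbol for each replicate number. Fth1 and Prdx1 lie above the other genes in every library and Nqo1 lies below the minimum level of 10 (dotted line), and the 3 GFP-TTP-AA libraries of Hmox1 (1466 to 1668) lie below the other 6. The spread of points within a condition is the fitted replicate term and no measure of error.

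In GFP-TTP against GFP none of the 9 tested genes was called at an adjusted p under 0.05 by the Wald test on the deposited DESeq2 errors, and 0 passed an unadjusted p of 0.05. Among all 9938 genes tested 2.09% were called (0.805% as higher and 1.29% as lower), and 11.3% had an unadjusted p under 0.05. The log2 differences of the 9 genes ran from -0.18 (Srxn1) to 0.27 (Gclc), with a median of 0.027 against 0.002 for all genes (SD over all genes 0.26). Their standard errors were 0.14 to 0.20. The intervals still allow moderate differences, such as -0.57 to 0.21 for Srxn1 and -0.09 to 0.63 for Gclc.

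In GFP-TTP-AA against GFP 1 of the 9 genes was called, Fth1, which was higher, where 3.03% of all genes were called (1.76% as higher and 1.27% as lower). A further 4 (Gclm, Srxn1, Prdx1 and Hmox1) had an unadjusted p under 0.05 but did not pass after adjustment, and 14.2% of all genes had such a p. The median difference of the 9 genes was 0.18 on the log2 scale against 0.005 for all genes (SD 0.27), with 7 of 9 above 0.

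In GFP-TTP-AA against GFP-TTP 2 of the 9 genes were called in opposite directions, Srxn1 as higher and Hmox1 as lower, where 10.2% of all genes were called (5.66% as higher and 4.58% as lower). At an unadjusted p under 0.05 there were 3 (Prdx1 in addition), against 22.1% of all genes. The median of the 9 was 0.25 against 0.006 for all genes (SD 0.35), again with 7 of 9 above 0. Hmox1 and Gclc were the genes with negative differences in both comparisons with GFP-TTP-AA.

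**Figure D2:**
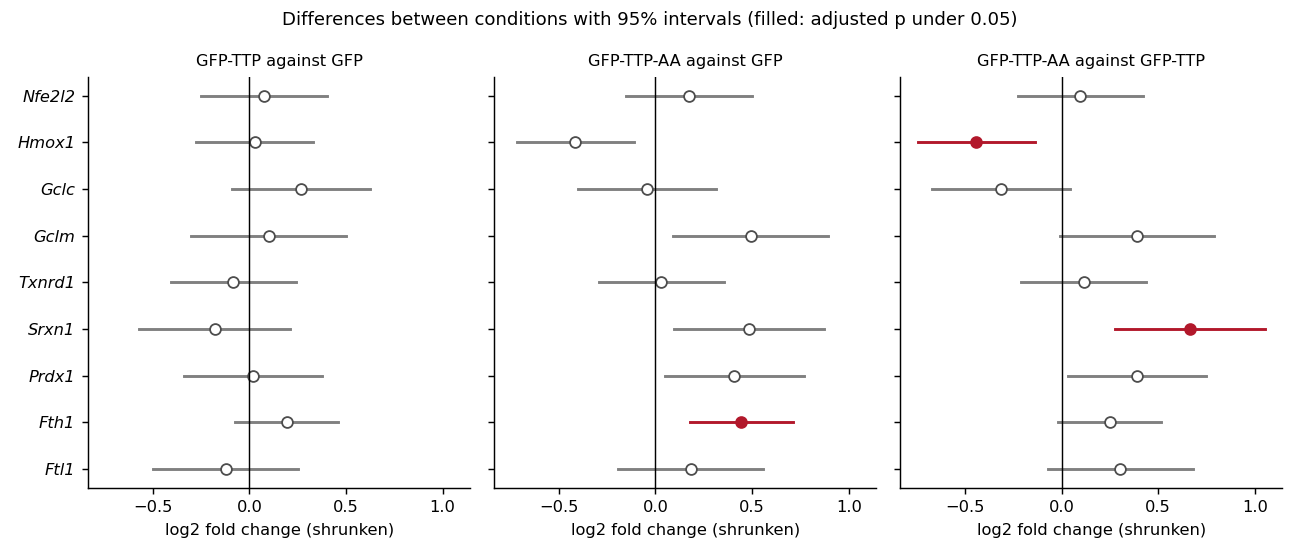
Log2 fold change (shrunken by the study's model) of the 9 tested genes in the 3 comparisons, with 95% intervals from the deposited standard errors as bars. Filled red points passed an adjusted p of 0.05, which holds for Fth1 in GFP-TTP-AA against GFP and for Hmox1 (-0.44) and Srxn1 (0.66) in GFP-TTP-AA against GFP-TTP.

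Nfe2l2 itself, the gene of NRF2, did not pass the test in any comparison. Its fitted level was 2156, 2228 and 3310 in replicates 1, 2 and 3 of GFP, 2273, 2349 and 3490 in GFP-TTP, and 2430, 2511 and 3731 in GFP-TTP-AA. The third replicate stood above the first and second, the same in each condition by construction. For Nfe2l2 the range over conditions (1.13-fold) was narrower than that over replicate numbers (1.54-fold). The range over replicate numbers was wider than that of 91.1% of all genes kept. The range over conditions rests on shrunken fold changes, so the ranges may not be directly comparable. GFP-TTP-AA exceeded GFP by 0.17 on the log2 scale (95% interval -0.15 to 0.50, adjusted p = 0.73). NRF2 is controlled mainly through the stability of its protein, which footprints do not measure.

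Of the genes around NRF2, 10 regulators and partners were examined (Keap1, Cul3, Bach1, Mafg, Mafk, Maff, Nfe2l1, Sqstm1, Btrc and Fbxw11). KEAP1 and CUL3 form the ligase that marks NRF2 for degradation, the small MAF proteins are its DNA-binding partners and SQSTM1 draws KEAP1 into autophagy. All 10 were tested and none was called in the 3 comparisons by the Wald test on the DESeq2 errors, where 2.09%, 3.03% and 10.2% of all genes were called, so that a count of 0 among 10 genes sets them little apart from other genes. An unadjusted p under 0.05 was found for 0, 0 and 1 of them, against 11.3%, 14.2% and 22.1% of all genes. Their log2 differences stayed between -0.42 and 0.34.

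Hmox1, which opens the haem ring and releases iron, carbon monoxide and biliverdin, fell in GFP-TTP-AA against GFP-TTP. Its fitted level was 2222, 2080 and 1953 in the GFP libraries, 2263, 2119 and 1990 in the GFP-TTP libraries, and 1668, 1561 and 1466 in the GFP-TTP-AA libraries. The fitted GFP and GFP-TTP levels overlapped and those of GFP-TTP-AA lay below both, which is no measure of error. Against GFP-TTP the difference was -0.44 on the log2 scale (SE 0.155, 95% interval -0.745 to -0.137, adjusted p = 0.046), a level 0.737 times that of GFP-TTP. Against GFP the difference was -0.41 with the same standard error, but the adjusted p was 0.13. GFP-TTP and GFP differed by 0.03 (interval -0.28 to 0.33). The call lies close to the threshold. The adjusted p was 0.056 when the median change of the genes on chromosome 8 was subtracted, 0.057 with a pseudocount of 10 and 0.075 when the 3 comparisons were adjusted together. The genes of fitted mean of at least 500 (2623 in all) whose 2 differences against GFP lay nearest to those of Hmox1 were Nup88, Mdh1 and Acadvl, a nuclear pore protein and enzymes of the malate and fatty acid pathways, at distances of 0.004, 0.016 and 0.026 on the log2 scale. This likeness is over 3 conditions and is a description.

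Srxn1, the sulfiredoxin that repairs over-oxidised peroxiredoxins, rose in GFP-TTP-AA against GFP-TTP and showed the widest difference of the 9 genes. The fitted level of Srxn1 was 213.1, 202.5 and 225.2 in the GFP libraries, 188.1, 178.8 and 198.8 in the GFP-TTP libraries, and 297.9, 283.1 and 314.8 in the GFP-TTP-AA libraries. All 3 fitted GFP-TTP-AA levels lay above the other 6, which on fitted values adds nothing to the difference itself. GFP-TTP-AA exceeded GFP-TTP by 0.66 on the log2 scale (SE 0.20, 95% interval 0.27 to 1.05, adjusted p = 0.013), or 1.58-fold. Against GFP the difference was 0.48 (adjusted p = 0.18). This call held under each of the alternatives that could be run, with an adjusted p from 0.0065 to 0.023.

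Prdx1, a peroxide-reducing enzyme and a substrate of sulfiredoxin, had fitted levels of 11687 to 13038 in GFP, 11836 to 13204.5 in GFP-TTP and 15500.1 to 17292 in GFP-TTP-AA libraries. The fitted GFP and GFP-TTP levels overlapped and the GFP-TTP-AA levels lay above both, which is no measure of error. GFP-TTP-AA differed from GFP by 0.41 and from GFP-TTP by 0.39 on the log2 scale (SE 0.18), without passing the adjustment (adjusted p = 0.25 and 0.18). Txnrd1, the selenoenzyme that recharges thioredoxin, had fitted levels of 1901 to 2194, 1794 to 2071 and 1941 to 2241 in the 3 conditions, and all 3 overlapped. Its log2 differences were between -0.08 and 0.11 (SE 0.165), and their signs turned when the median change of the genes on chromosome 10 was subtracted.

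The subunits of glutamate-cysteine ligase, which sets the rate of glutathione synthesis, had differences of opposite sign in both comparisons with GFP-TTP-AA, and neither passed the test. Gclm, the modifier subunit, had fitted levels of 420.7, 311.1 and 362.3 in the GFP libraries, 450.8, 333.3 and 388.3 in GFP-TTP, and 591.6, 437.5 and 509.6 in GFP-TTP-AA. Replicate 1 was the highest and replicate 2 the lowest, the same in each condition by construction. The fitted GFP-TTP levels overlapped with those of GFP and of GFP-TTP-AA, while those of GFP-TTP-AA lay above those of GFP. Such overlap or separation is no measure of error. GFP-TTP-AA differed from GFP by 0.49 (SE 0.20, 95% interval 0.09 to 0.89, adjusted p = 0.19). Gclc, the catalytic subunit, had levels of 308.8 to 394.1, 371.7 to 474.4 and 299.4 to 382.1 in GFP, GFP-TTP and GFP-TTP-AA. Here the GFP and GFP-TTP-AA libraries nearly coincided, and the difference of GFP-TTP-AA from GFP-TTP was -0.31 (SE 0.18, 95% interval -0.67 to 0.045, adjusted p = 0.31). Whether Gclm and Gclc differ from each other in response was not tested.

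Nqo1, the quinone reductase that often serves as a reporter of NRF2, lay near the floor of the data. Its fitted level was 2.00 to 2.50 in GFP, 2.02 to 2.52 in GFP-TTP and 2.51 to 3.14 in GFP-TTP-AA libraries, below the minimum level of 10. The comparison tables hold no standard error for it, so no difference can be tested at this depth.

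The promoters of 8 of the 10 genes were in the RefSeq table used (GRCm38.p6, 250 bases before to 50 after each start site), and Hmox1 and Gclc were not. The core of the antioxidant response element, TGACNNNGC on either strand, was found in 5 of these 8, where 14.0% of all genes with a promoter in that table hold it in at least 1 window (12.4% of the 32851 windows). The match is shown because it is the letter pattern by which NRF2 and its MAF partners are known to bind. Each is written 5′ to 3′ on the strand that carries the core, with the core in capitals.
Srxn1 (chr2:152105544-152105568, minus strand): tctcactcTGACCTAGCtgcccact
Prdx1 (chr4:116685458-116685482, minus strand): acgggggaTGACTCAGCgctttccc
Gclm (chr3:122245415-122245439, minus strand): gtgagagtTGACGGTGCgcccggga
Txnrd1 (chr10:82859106-82859130, minus strand): tgtcagaaTGACAAAGCaaaaatcc
Nfe2l2 (chr2:75704887-75704911, minus strand): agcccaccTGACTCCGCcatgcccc
Those of Gclm and Prdx1 began 134 and 133 bases before the start site, that of Txnrd1 92 before it in 1 of its 3 windows, and that of Nfe2l2 240 before it. The match of Srxn1 began 28 bases after the start site, in the first exon. No match was found in the windows of Fth1, Ftl1 and Nqo1, which says only that these letters are not in this stretch. The genes with a match include Srxn1, which was called, and Txnrd1 and Nfe2l2, which were not called in any comparison.

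Fth1, the ferritin heavy chain that oxidises iron for storage, rose in GFP-TTP-AA against GFP and was the only one of the 9 genes called in that comparison, although the differences of Gclm (0.49) and Srxn1 (0.48) were as large. Its fitted level was 12762, 14715 and 14017 in the GFP libraries, 14608, 16844 and 16045 in the GFP-TTP libraries, and 17357, 20013 and 19064 in the GFP-TTP-AA libraries. The fitted GFP-TTP-AA levels lay above all others, while those of GFP-TTP and GFP overlapped, and neither is a measure of error. GFP-TTP-AA exceeded GFP by 0.44 on the log2 scale (SE 0.14, 95% interval 0.18 to 0.71, adjusted p = 0.04), or 1.36-fold. GFP-TTP differed from GFP by 0.19 (SE 0.14, adjusted p = 0.64) and GFP-TTP-AA from GFP-TTP by 0.25 (adjusted p = 0.27). Genes on chromosome 19, where Fth1 lies, had a median difference of 0.11 in GFP-TTP-AA against GFP and of 0.17 in GFP-TTP against GFP. With that median subtracted the difference of Fth1 against GFP was 0.34, with an adjusted p of 0.19, and with a pseudocount of 10 the adjusted p was 0.053. The genes with the nearest pair of differences were Dcun1d5, Gsto1 and Cpd, at distances of 0.006, 0.016 and 0.017 on the log2 scale.

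Ftl1, the ferritin light chain that seeds the iron core, was not called. The fitted levels were 325.4, 449.6 and 415.9 in the GFP libraries, 298.8, 412.9 and 382.0 in GFP-TTP, and 369.0, 509.8 and 471.7 in GFP-TTP-AA. Replicate 1 was the lowest, the same in each condition by construction. The range over replicate numbers (1.38-fold) exceeded that over conditions (1.23-fold), which rests on shrunken fold changes. GFP-TTP-AA differed from GFP by 0.18 (SE 0.19, 95% interval -0.192 to 0.555) and from GFP-TTP by 0.30 (interval -0.07 to 0.68). Since most of its coding sequence also occurs elsewhere in the genome, in 25 other stretches of 10 kb, its level and its distance from Fth1 are uncertain.

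Both ferritin mRNAs carry the iron-responsive element through which iron regulatory proteins act. A search of annotated 5′UTRs for an unpaired C, 5 bases, the loop CAGTGN and 5 bases that pair with the first 5 found it in Fth1 and Ftl1 and in none of the other 8 genes, and in 0.103% of 20461 mouse protein-coding genes. These are shown because they set ferritin apart from the other genes here. They are written 5′ to 3′ with the first 5 bases of the loop in capitals.
Fth1 (GRCm38 chr19:9982732-9982760, plus strand, 5′UTR in exon 1): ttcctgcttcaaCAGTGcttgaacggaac
Ftl1 (GRCm38 chr7:45459779-45459807, minus strand, 5′UTR in exon 1): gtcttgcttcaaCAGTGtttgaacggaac
The same search found 1 match in the 5′UTR of the iron exporter gene Slc40a1. It also found 4 matches in the 3′UTR of the transferrin receptor gene Tfrc. There such hairpins are known to stabilise the mRNA when iron regulatory proteins bind them. Tfrc had fitted levels of 2645, 3108 and 2646 in GFP, GFP-TTP and GFP-TTP-AA cells and was not called in any comparison.

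The AU-rich pentamer ATTTA was present in the annotated 3′UTR of 8 of the 10 genes, where 62.4% of 20578 protein-coding genes hold it, and in neither ferritin gene. Their 3′UTRs were also short, with 156 bases in Fth1 and 163 in Ftl1. The longer motif TATTTAT, the core of the sequence that TTP is known to prefer, was found in 3 of the 10 (25.9% of all genes). It is shown in capitals with its surroundings on the transcript strand.
Gclm (GRCm38 chr3:122270356-122270380, plus strand, 3′UTR in exon 7): gccaatgttTATTTATgtgtctaac
Txnrd1 (GRCm38 chr10:82897448-82897472, plus strand, 3′UTR in exon 14): gttcagtttTATTTATttatttttt
Nfe2l2 (GRCm38 chr2:75675694-75675718, minus strand, 3′UTR in exon 5): tacagaactTATTTATactgttctc
The Txnrd1 stretch holds a second copy that overlaps the first. None of these 3 genes was called in any comparison, and none of the 3 genes that were called (Hmox1, Srxn1 and Fth1) holds the longer motif. Whether the motif goes with the calls was not tested. Hmox1 holds 1 pentamer and Srxn1 holds 2. A match is a pattern of letters and was not set against any binding data.

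**Figure D3:**
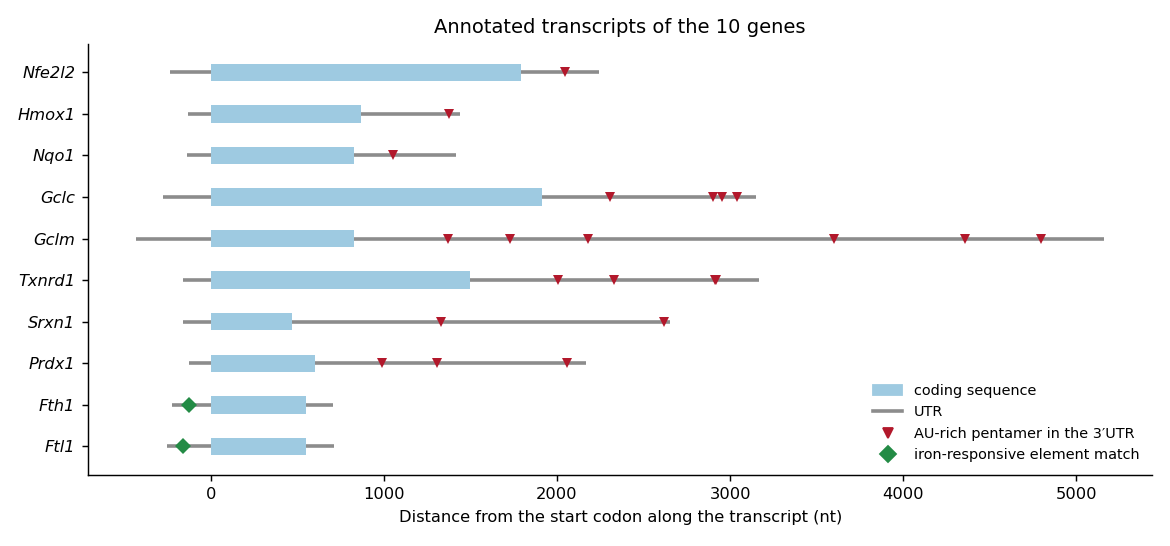
Annotated transcript of each gene, aligned at the start codon (x axis, distance along the transcript in nucleotides), with the coding sequence as a box, UTRs as lines, AU-rich pentamers in the 3′UTR as triangles and iron-responsive element matches as diamonds. Fth1 and Ftl1 alone among the 10 carry a diamond and have no triangle, and Gclm has the longest 3′UTR with 6 pentamers.

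Wider lists of the same pathways gave 86 further genes, of which 83 were in the table and 78 were tested. In GFP-TTP against GFP 1 of the 78 was called (1.28%), in GFP-TTP-AA against GFP 10 (12.8%, 7 higher and 3 lower), and in GFP-TTP-AA against GFP-TTP 13 (16.7%, 11 higher and 2 lower). The shares of all genes called in these comparisons were 2.09%, 3.03% and 10.2%. The lists were drawn up with earlier results of these data known, so the counts are descriptions. Of the calls named below, those of Sesn1 in GFP-TTP against GFP, of Sod2 against GFP, and of Gpx1, Prdx4, Blvrb, Ncoa4 and Lcn2 against GFP-TTP were lost under at least 1 alternative.

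Among 15 tested genes of glutathione synthesis and use, 2 were higher in GFP-TTP-AA than in GFP and 3 higher than in GFP-TTP. Of all genes 1.76% and 5.66% were called higher in these comparisons. Mgst2 and Mgst1, microsomal glutathione transferases, were at 179.6 against 89.4 and at 350.7 against 186.0 in GFP-TTP-AA against GFP, differences of 1.01 and 0.91 on the log2 scale (SE 0.21 for both, adjusted p = 0.00026 and 0.0013). Against GFP-TTP, Glrx, a glutaredoxin, rose by 0.80 (SE 0.17, adjusted p = 0.00011), Mgst1 by 0.74 (SE 0.21, adjusted p = 0.007) and the glutathione peroxidase gene Gpx1 by 0.40 (SE 0.14, adjusted p = 0.041). Of the 11 genes of the thioredoxin and peroxiredoxin system, 1 was called in GFP-TTP against GFP, where 2.09% of all genes were called. In GFP-TTP-AA 3 were called against GFP and 2 against GFP-TTP, beside 3.03% and 10.2% of all genes. The sestrins Sesn1 and Sesn2, stress-responsive regulators of growth signalling, went opposite ways. Against GFP, Sesn1 fell by 0.65 on the log2 scale in GFP-TTP (SE 0.19, adjusted p = 0.044) and fell by 0.73 in GFP-TTP-AA (adjusted p = 0.011). Sesn2 was higher in GFP-TTP-AA by 0.57 against GFP (adjusted p = 0.016) and by 0.63 against GFP-TTP (adjusted p = 0.0021). Txnip, which binds and inhibits thioredoxin, was lower in GFP-TTP-AA than in GFP (569.2 against 932.0, -0.71, SE 0.16, adjusted p = 0.00094), and Prdx4, the peroxiredoxin of the secretory pathway, was higher than in GFP-TTP (0.42, SE 0.15, adjusted p = 0.043).

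Genes of superoxide removal, of quinone, aldehyde and haem breakdown and of NADPH supply contributed 1 or 2 called genes each, of 3, 11 and 6 tested. In GFP-TTP-AA against GFP each list held 1 call, where 3.03% of all genes were called. Against GFP-TTP the lists held 0, 2 and 0 calls, where 10.2% of all genes were called. Sod2, the mitochondrial superoxide dismutase, was higher in GFP-TTP-AA than in GFP (2764 against 1810, 0.61 on the log2 scale, SE 0.19, adjusted p = 0.045). Blvrb, a biliverdin reductase, was higher in GFP-TTP-AA than in GFP-TTP (0.56, SE 0.19, adjusted p = 0.037). Blvra, the other biliverdin reductase, differed by -0.34 in that comparison without passing the Wald test (SE 0.14, adjusted p = 0.1). Idh1, a cytosolic source of NADPH, was higher than in GFP (0.46, SE 0.14, adjusted p = 0.035). Aldh2, a mitochondrial aldehyde dehydrogenase, was lower in GFP-TTP-AA than in either other condition (4106 against 6540 in GFP and 5635 in GFP-TTP, -0.67 and -0.46, SE 0.145 for both, adjusted p = 0.00057 and 0.022).

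Of the 16 tested genes of iron uptake, export and sensing, 3 were called, all in GFP-TTP-AA against GFP-TTP, where 10.2% of all genes were called. Slc11a1 (NRAMP1), which moves metal ions out of the phagosome, rose from 939.2 to 1679 (0.84 on the log2 scale, SE 0.20, adjusted p = 0.0013). Lcn2, which captures the iron carriers of bacteria, rose by 0.40 (SE 0.14, adjusted p = 0.05, under the threshold before rounding). Ncoa4, the receptor that takes ferritin to the lysosome for iron release, fell by 0.53 on the log2 scale (SE 0.17, adjusted p = 0.025), from 309.6 to 213.7. The iron exporter Slc40a1 lay below the minimum level, at 9.41 in GFP cells.

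The subunits of the phagocyte NADPH oxidase, the enzyme whose superoxide this defence meets, gave 2 calls of 6 in GFP-TTP-AA against GFP and 3 of 6 against GFP-TTP, all higher, where 3.03% and 10.2% of all genes were called. Cybb, the catalytic subunit, had levels of 4492, 3868 and 7780 in GFP, GFP-TTP and GFP-TTP-AA cells, higher in the last by 0.79 against GFP (SE 0.18, adjusted p = 0.0013) and by 1.01 against GFP-TTP (adjusted p = 1.8e-06). Ncf4, a cytosolic subunit, was higher by 0.51 (SE 0.14, adjusted p = 0.019) and 0.69 (adjusted p = 6.7e-05). Rac2, the GTPase of the complex, was higher than in GFP-TTP by 0.64 (SE 0.16, adjusted p = 0.0014). Of the 8 tested macrophage markers, 1 was called in GFP-TTP-AA against GFP and 4 against GFP-TTP, all higher. Against GFP 7 of the 8 were above 0 and Fcgr1 was at -0.23 (not called). Against GFP-TTP all 8 were above 0, down to 0.002 for Itgam. Emr1 was higher by 0.54 against GFP (adjusted p = 0.029) and by 1.22 against GFP-TTP, and Lyz2 by 0.64 against GFP-TTP. S100a8, the only tested gene of the neutrophil list, was higher by 1.05 against GFP (adjusted p = 0.0023) and by 1.13 against GFP-TTP (adjusted p = 0.00024).

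**Figure D4:**
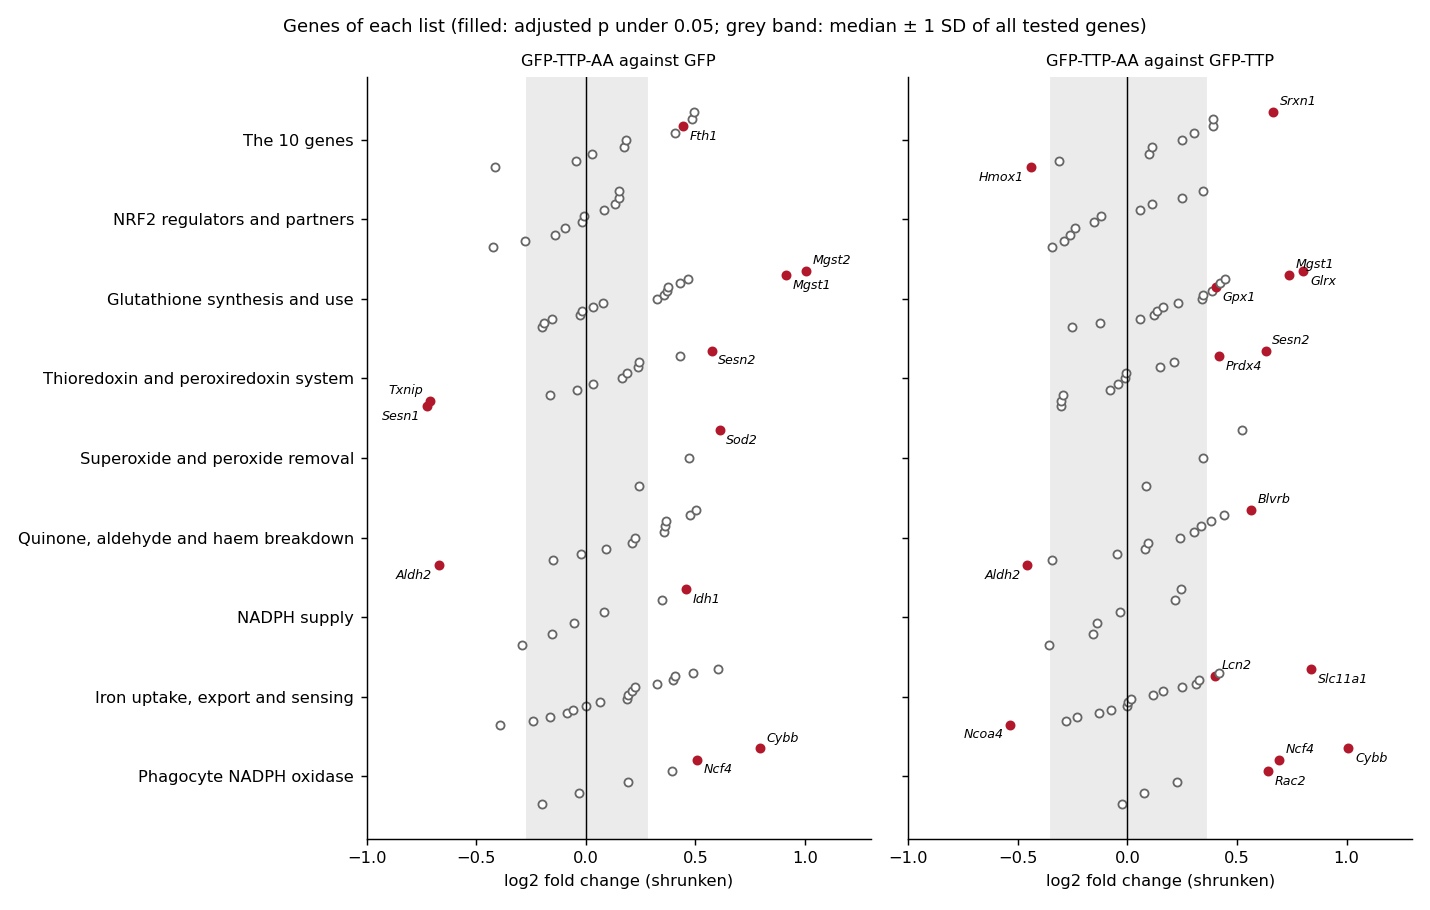
Log2 fold change (shrunken) of each tested gene by list, in GFP-TTP-AA against GFP (left) and against GFP-TTP (right), with genes of adjusted p under 0.05 filled and named. The grey band is the median ± 1 SD of all tested genes; Mgst2 (1.01) and Cybb (1.01) lie farthest to the right, and the list of NRF2 regulators has no filled point.

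Over replicate numbers, 4 of the 9 tested genes (Nfe2l2, Ftl1, Gclc and Txnrd1) had a wider range than over conditions, as had 53.4% of all kept genes. The ranges over conditions rest on shrunken fold changes, so these comparisons of ranges are descriptions. Srxn1 had the narrowest range over replicate numbers of the 9 (1.11-fold against 1.58-fold over conditions), followed by Prdx1 (1.12-fold against 1.33-fold). For Hmox1 and Fth1 the ranges were 1.14-fold and 1.15-fold over replicate numbers and 1.36-fold over conditions for both.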

How the data were processed

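Ribosome footprints were measured with the ARTseq kit in 9 libraries, grouped by their labels. The authors mapped reads with TopHat to mm10, keeping up to 2 places per read, and fitted them with DESeq2 (library date plus condition). The submitters' processing notes name Trim Galore, TopHat2 2.0.12, HTSeq and DESeq2 1.6.3. The authors' deposited signal per gene and library is the value fitted by that model, checked on the values (nothing was left of the log2 values after condition and replicate terms). The deposited comparison tables give log2 fold changes with standard errors, p-values and a mean signal. The authors' p-values were not used. Reads per library are unknown, so depth acts only through these errors.

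Levels were averaged per condition as geometric means of the fitted values after division by the size factors, which were recovered from the tables. The 10099 genes whose mean level reached 10 were kept. Each log2 difference was divided by its standard error from the authors' DESeq2 fit (2-sided Wald test against the normal distribution) and adjusted by the Benjamini-Hochberg method over all kept genes that have an error (9938, 10099 and 10099), with a threshold of 0.05 and intervals of 95%. The procedure was tested on simulated data. No test of replicates was possible on fitted values, which differs from a count test.

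Named genes were the 10 genes, in each wider list those past the threshold (at most 4 with the smallest adjusted p), Zfp36, and the 3 genes nearest to Hmox1 and to Fth1. Macrophage markers, S100a8, Tfrc and Slc40a1 were named after their values were seen. Members and lists were chosen with earlier results of these data known. Transcripts came from GENCODE vM21 on GRCm38, the assembly of mm10 (principal transcript), and promoters from RefSeq. Coding windows were searched with blastn 2.17.0. Python 3.11.15, numpy 2.4.6, scipy 1.17.1 and pandas 2.3.3 were used.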

Additional observations from a re-analysis of the deposited data

How the results depend on the processing

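The alternatives were no minimum level, a minimum of 50, adjustment over the 3 comparisons together, subtraction of the median change of all kept genes or of the gene's chromosome, and a pseudocount of 1 or 10. Of the values for single genes 355 kept their direction and side of the threshold, 20 lost the threshold and 3 turned. The call of Fth1 in GFP-TTP-AA against GFP was lost with the chromosome median subtracted (adjusted p = 0.19) and with a pseudocount of 10 (0.053), so that 0 of the 9 genes were then called. The call of Hmox1 in GFP-TTP-AA against GFP-TTP was lost with the joint adjustment (0.075), the chromosome median (0.056) and a pseudocount of 10 (0.057), which left 1 called gene, Srxn1. The log2 difference of Hmox1 stayed between -0.45 and -0.43 and that of Srxn1 between 0.64 and 0.72. The differences of Txnrd1 turned with the chromosome median subtracted, to 0.0328 in GFP-TTP against GFP, -0.0063 in GFP-TTP-AA against GFP and -0.0598 in GFP-TTP-AA against GFP-TTP. In the wider lists the count for GFP-TTP against GFP was 2 with the chromosome median and 0 with a pseudocount of 10, and that for GFP-TTP-AA against GFP-TTP fell from 13 to 12 with no minimum level, the median of all genes subtracted or a pseudocount of 1, to 10 with a pseudocount of 10 and to 9 with the joint adjustment. Lcn2 was lost under each of these 5 settings (adjusted p from 0.051 to 0.081), Gpx1 and Prdx4 with a pseudocount of 10 and the joint adjustment, and Blvrb with the latter. Ncoa4 was lost with the chromosome median (0.051), Sod2 against GFP with a pseudocount of 10 (0.06), and Sesn1 in GFP-TTP against GFP with both (0.2 and 0.083). Over all genes a pseudocount of 10 moved the calls from 306 to 199 in GFP-TTP-AA against GFP. A pseudocount draws each difference towards 0 while the standard errors stay as deposited, so this setting could only remove calls. The difference of Fth1 in that comparison was 0.4434 with it and 0.4437 without it. No paired analysis was possible because the deposited values are fitted and hold no spread between replicates. The deposited standard errors come from a fit that already holds the library date as a term, so what is missing is a fit without it, and for the same reason no library could be left out in turn.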
